A study of Arabidopsis thaliana with 8 samples.

Results

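The genes described here encode proteins of the cytosolic large (60S) ribosomal subunit of Arabidopsis thaliana. They are 39 genes of 17 families (RPL3, RPL4, RPL5, RPL7, RPL7a, RPL8, RPL9, RPL10, RPL13, RPL13a, RPL18, RPL23a, RPL24, RPL27a, RPL28, P0 and P1), taken by identifier from a table of 27416 genes. The measurements were ribosome footprint counts on coding sequences from 4-day-old seedlings of the Col ecotype, whose roots and shoots were collected 3 h after the lights came on. There were 4 root and 4 shoot libraries, 1 for each tissue in each of 4 polysome extraction buffers. The buffers A, B and C shared 200 mM Tris and stepped down in KCl (50, 40 and 30 mM) and MgCl2 (25, 20 and 15 mM), while D combined the KCl and MgCl2 of B with 100 mM Tris. No plant carried a mutation or received a treatment according to the labels, and the buffers stood in for replicates. Separate cultures are not mentioned for these libraries, so every p-value measures only the spread between these libraries.

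The large subunit carries the peptidyl transferase centre, where peptide bonds form, and the tunnel through which the nascent chain leaves. In plants almost every ribosomal protein is encoded by a small family of paralogs, and a single ribosome takes up 1 copy of most of these proteins, so that paralogs of a family can stand in for each other in the particle. Mutants of single Arabidopsis paralogs are known for pointed leaves, altered leaf polarity, altered cell number or arrested embryos, depending on the gene. A footprint count reflects how many ribosomes were translating a paralog's mRNA, not how much of the protein was in ribosomes.

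Root libraries held 1120218 to 3410266 counts, with root D the shallowest, and shoot libraries 3746348 to 4501213. The tissue labels fitted the marker genes: 6 root markers summed to 2176 to 2778 CPM (counts per 1e6 counts) in root and 60.4 to 139.6 in shoot, and 6 shoot markers to 277 to 392 CPM in root, against 34263 to 37892 in shoot. Of the 39 genes, 37 had counts in all 8 libraries and 38 passed the filter on low counts. AT3G51190 of the RPL8 family did not pass, with 0 counts in 7 libraries and 6 in shoot B. Each gene was described by its share of the counts of its family, a quantity that does not depend on how libraries are scaled. The families hold 46 measured paralogs, because 7 paralogs outside the 39 genes (of RPL13, RPL18, RPL27a, RPL28 and P1) were added so that each denominator covers the family. Coding lengths were not used here, so shares are shares of counts, not of footprints per length. With 2 paralogs, a fixed difference in length between them leaves the order of the libraries as it is. How reads that match several paralogs were assigned is not given in the sources used here, so counts may have been split between near-identical copies, and single members of such pairs are uncertain.

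In most families the same paralog led in both tissues. In 14 of 17 families a single gene had the largest share in all 8 libraries. The mean share of the leader ran from 46.9%, for AT1G33120 of RPL9 in root, to 95.8%, for RP1 of RPL3 in shoot, and it was above 50% in both tissues in 13 families. The families RPL3 and P0 were the most uneven, with a leader above 80% in both tissues on average, and in RPL7a, RPL9, RPL13a and P1 the leader averaged under 50% in at least 1 tissue. The 3 families without a single leader were RPL7a, where the leader differed between the tissues, RPL4, where both genes lay near 50% in shoot, and P1, where root D alone had another leader.

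Against this stable order, the balance within a family differed between root and shoot in 6 of the 17 families (35.3%), in the sense that the leader's shares in the 4 root libraries did not overlap those in the 4 shoot libraries. In RPL7a, RPL24 and RPL28 the leader had the larger share in root, and in RPL3, RPL8 and RPL23a it had the smaller share in root. Each of these 6 gave an exact permutation p of 0.0286 (two-sided, 4 against 4 libraries), which is the smallest value this design can give, in 17 families tested. With root and shoot paired by buffer, sign flips within buffers gave an exact p of 0.125 for each of the 6, the smallest that 4 pairs allow, so no family passes 0.05 in the paired test. The family p-values printed here and below are unpaired and not adjusted over the families. In 30 other large subunit families, taken as a background, the same was seen in 6 (20.0%). Gene by gene, 12 of the 39 members had shares that did not overlap (30.8%), 6 higher and 6 lower in root, against 16.7% of 84 genes in the other families. In a family of 2 genes one share is the complement of the other. The gene count and its even split therefore largely repeat the family count. The 84 genes also include paralogs with almost no counts, while the 39 leave out the paralogs added to their families, so the percentages are not on like sets. Whether the member families differ from the others was not tested.

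**Figure D1:**
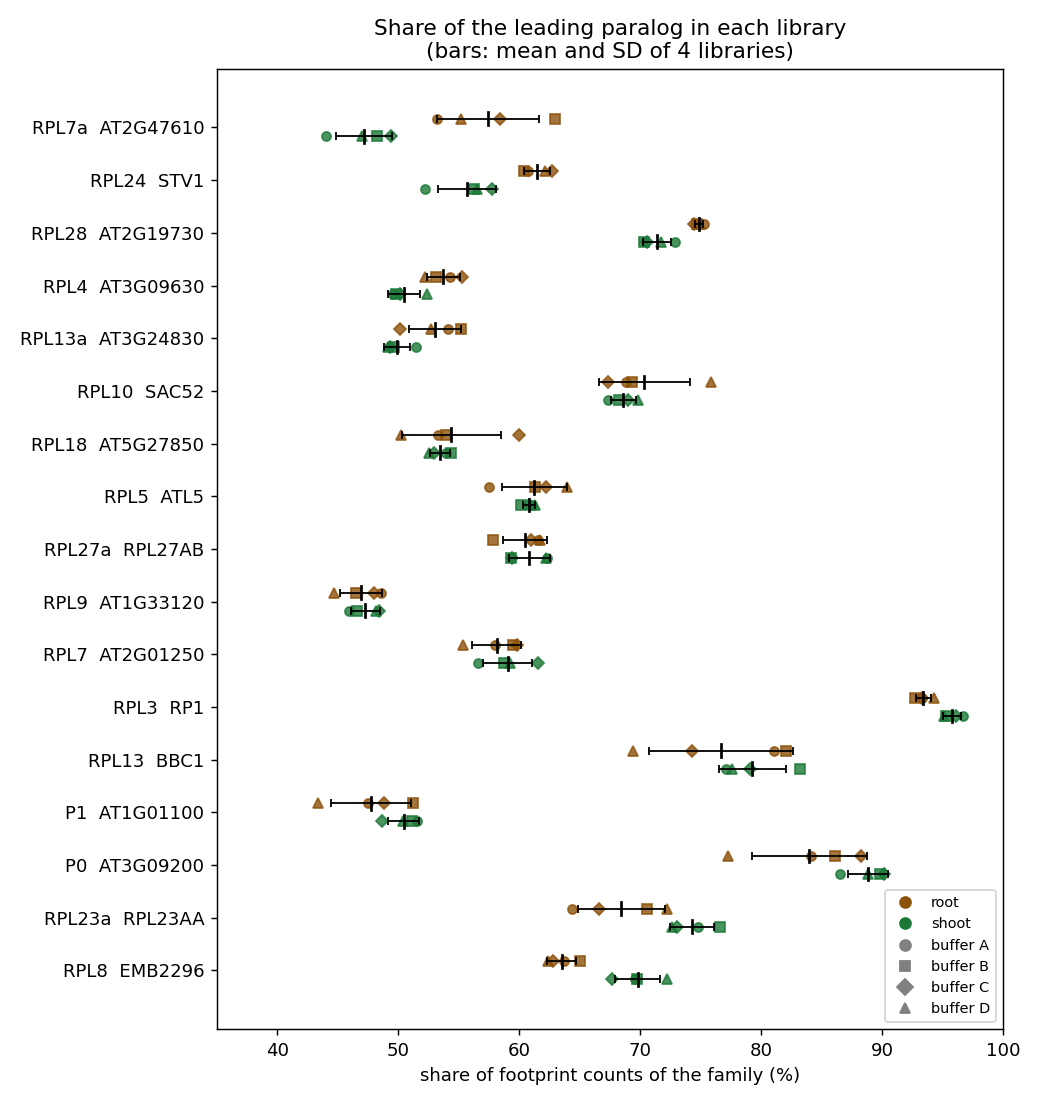
Share of the leading paralog in the footprint counts of its family (x axis, percent) for 17 families (rows, ordered by root minus shoot). Points are the single libraries, root above shoot in each row and the marker giving the buffer, with the mean and SD of 4 libraries in black. AT2G47610 of RPL7a stands at the top with 57.4% in root and 47.2% in shoot, and EMB2296 of RPL8 at the bottom with 63.5% in root and 69.8% in shoot.

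The largest difference was in RPL7a, a protein of the large subunit that also occurs in archaea. AT2G47610 took 53.2, 62.9, 58.4 and 55.2% of the family in root libraries A, B, C and D, against 44.04, 48.2, 49.4 and 46.97% in shoot A to D. AT3G62870 held the remainder, so AT2G47610 led in all 4 root libraries and AT3G62870 in all 4 shoot libraries. The mean share of AT2G47610 was 57.4 ± 4.23% in root and 47.2 ± 2.29% in shoot (SD, n = 4 each), a difference of 10.3 percentage points (two-sided exact permutation p = 0.0286, and 0.0571 without shoot A). Leaving out 1 library makes the groups unequal in size. Tissues that stay fully apart, as here, can then give an exact p of 0.0571 instead of 0.0286, because the split in the reverse direction may also count. This holds for the families below as well. Levels of single genes, unlike shares, depend on how libraries are scaled: here and in the families that follow, lower in root, passed and did not pass refer to TMM factors (a correction for the composition of each library). Of the members called lower with TMM, AT4G13170 of RPL13a alone was also called lower with library totals, and 11 of the 19 had the other sign there. AT3G62870 had 387, 374, 344 and 383 CPM in root, against 636, 617, 604 and 617 CPM in shoot, with no overlap (CPM here and below scaled by TMM). AT2G47610 had 440.3, 635, 483 and 471 CPM in root, against 501, 575, 589 and 546 CPM in shoot, and its ranges overlapped, with root B the highest of all 8. The log2 fold change, root minus shoot, was -0.74 ± 0.10 (SE) for AT3G62870 (adjusted p = 1.23e-04, edgeR quasi-likelihood test) and -0.14 ± 0.11 for AT2G47610 (adjusted p = 0.356).

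RPL3 and RPL8, both around the peptidyl transferase centre, had a different balance in the tissues. The leader's share in RPL10, near the bound tRNAs, overlapped between the tissues and is given below. RPL3 reaches toward the centre from the body of the subunit, and its genes are RP1 (AT1G43170), known from an embryo-defective mutant, and RPL3B (AT1G61580). RPL3B was the minor copy and took 6.74, 7.25, 6.71 and 5.74% of the family in the root libraries, against 3.35, 4.72, 3.91 and 4.92% in the shoot libraries. All 4 root values lay above all 4 shoot values. The mean was 6.61 ± 0.633% in root and 4.22 ± 0.729% in shoot (exact permutation p = 0.0286, n = 4 each). RP1 stood at 1244, 1323, 1491 and 1379 CPM in root, against 1807, 1905, 1865 and 1686 CPM in shoot, without overlap (log2 fold change -0.42 ± 0.08, adjusted p = 0.00218). RPL3B had 96.1 ± 11.03 CPM in root, against 80.00 ± 13.9 CPM in shoot, and its log2 fold change of 0.28 ± 0.17 did not pass (adjusted p = 0.236).

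RPL8 is among the most conserved proteins of the ribosome and lies close to the catalytic centre. Its leader EMB2296 (AT2G18020), whose loss arrests embryos, held 63.7, 65.03, 62.8 and 62.4% of RPL8 counts in root and 69.5, 69.8, 67.6 and 72.2% in shoot. AT4G36130 had 36.3, 34.97, 37.2 and 37.6% in root and 30.5, 30.1, 32.4 and 27.8% in shoot, and both genes kept the tissues apart. EMB2296 averaged 63.5 ± 1.16% in root and 69.8 ± 1.88% in shoot (exact permutation p = 0.0286, n = 4 each). Its level was 421, 541, 498 and 428 CPM in root, against 673, 862, 682 and 808 CPM in shoot (log2 fold change -0.68 ± 0.11, adjusted p = 3.98e-04), so the shoot libraries were all higher. AT4G36130 differed by less, at 271 ± 26.6 CPM in root, against 326 ± 33.4 CPM in shoot (-0.27 ± 0.11, adjusted p = 0.0792). AT3G51190 had 0 of 6818 RPL8 counts in root, which allows a share of up to 0.0440% there (3 counts, counting error only).

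**Figure D2:**
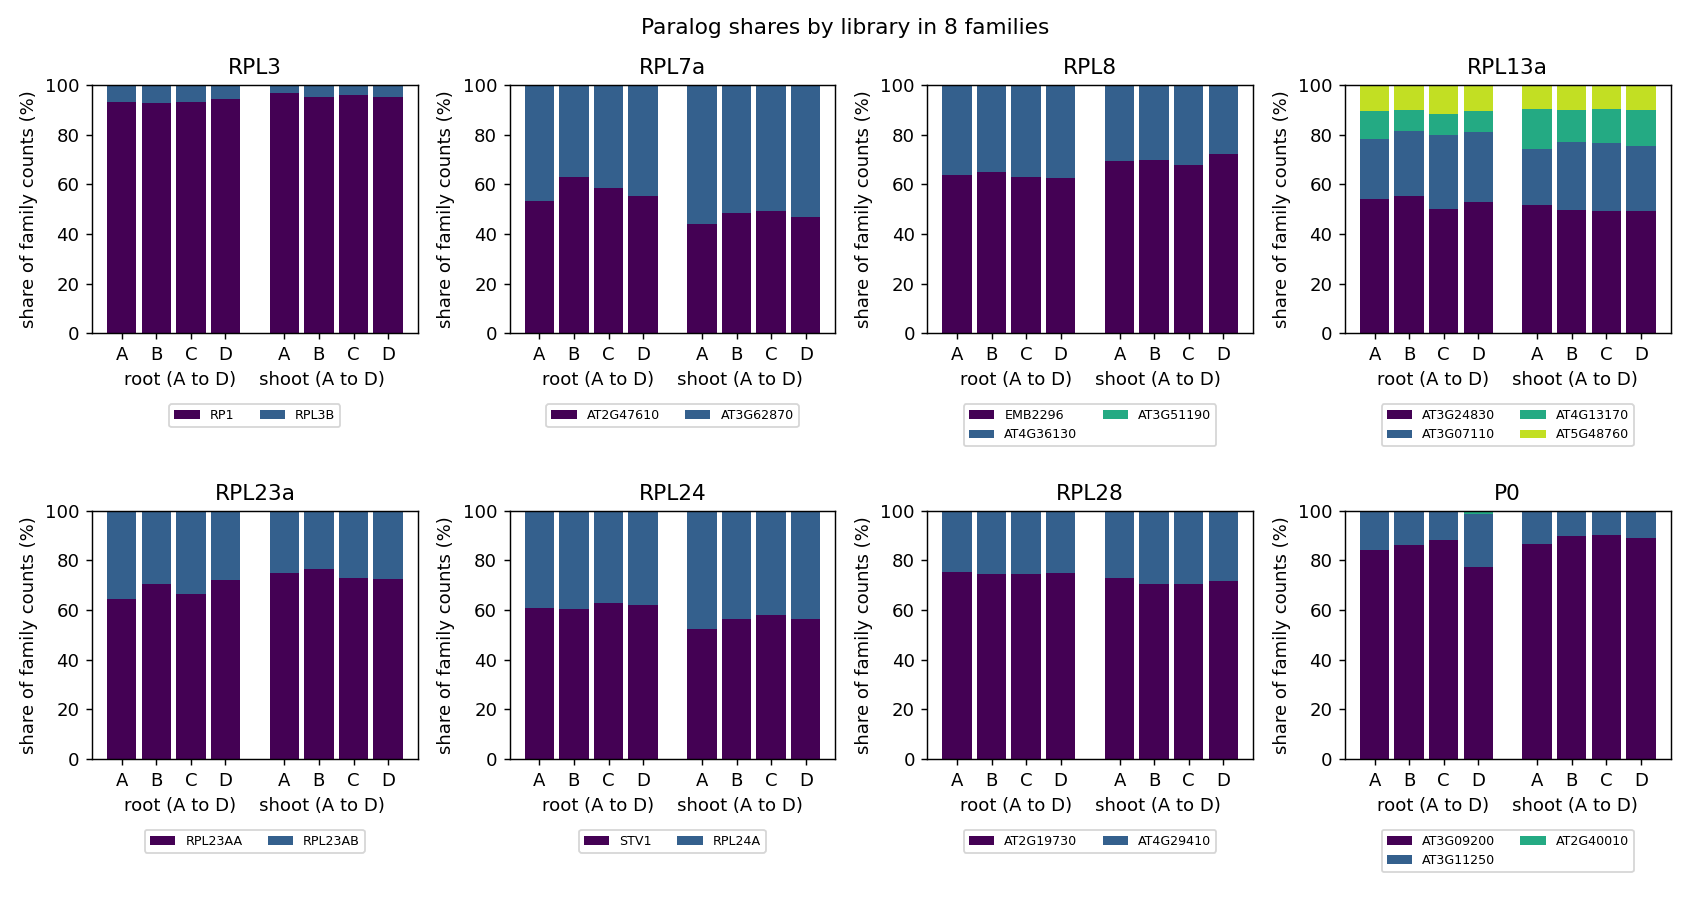
Shares of the paralogs (y axis, percent of family counts, bars stacked to 100) in each library for 8 families, with the 4 root libraries left of the 4 shoot libraries and the buffer under each bar. The lowest segment of RPL7a is above 50% in every root bar and below 50% in every shoot bar, and the segment of AT4G13170 in RPL13a is narrower in every root bar than in any shoot bar.

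RPL10 joins the subunit late in its assembly and lies near the bound tRNAs, and in Arabidopsis RPL10A, listed as SAC52 (AT1G14320), also takes part in antiviral signalling. SAC52 led with 68.8, 69.3, 67.4 and 75.9% in root and 67.4, 68.2, 69.00 and 69.8% in shoot. SAG24 (AT1G66580, RPL10C) followed with 25.4, 26.9, 26.9 and 19.1% in root and 28.3, 27.2, 27.9 and 26.2% in shoot, and its lowest value of all was in root D. RPL10B (AT1G26910) was a minor copy, with 5.097 ± 0.919% in root and 4.02 ± 0.653% in shoot. The share of SAC52 overlapped between the tissues (exact permutation p = 0.543, n = 4 each). In level, SAC52 had 569, 629, 654 and 654 CPM in root, against 738, 812, 763 and 722 CPM in shoot (adjusted p = 0.037), and SAG24 210.2, 244, 261 and 165 CPM in root, against 309.9, 324, 308 and 271 CPM in shoot (adjusted p = 0.0102), both lower in root. The call of SAC52 was lost without root A, B or C or without shoot A, B or C, at adjusted p values of up to 0.1397.

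The exit tunnel is lined in part by RPL4, and RPL23a sits at its mouth, where targeting factors dock on the ribosome. In RPL4 both genes had similar counts. AT3G09630 had 54.3, 53.1, 55.3 and 52.2% in root and 49.6, 49.8, 50.2 and 52.4% in shoot, with AT5G02870 as the complement. AT5G02870 was ahead by under 1 percentage point in shoot A and B, and only shoot D reached into the root range. The exact permutation p was 0.0571 (n = 4 each). It was 0.0286 without shoot D, 0.0571 without root D and 0.0857 without any other single library. The ranges were apart without shoot D and without root D. AT5G02870 had 898 ± 89.1 CPM in root, against 1264 ± 17.8 CPM in shoot, and AT3G09630 1041 ± 71.9 CPM and 1289.7 ± 56.8 CPM in the same order. Both were lower in root (adjusted p = 0.00135 for AT5G02870 and 0.0122 for AT3G09630, the second lost without root A at 0.0650).

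In RPL23a the leader RPL23AA (AT2G39460) took 64.3, 70.6, 66.6 and 72.2% in root and 74.7, 76.6, 73.1 and 72.6% in shoot. The ranges did not overlap, but root D and shoot D differed by less than 0.5 percentage points. The mean was 68.4 ± 3.59% in root and 74.3 ± 1.83% in shoot (exact permutation p = 0.0286, n = 4 each). Without any 1 of the shoot libraries the exact p was 0.0571, with the direction as before and the ranges still apart. RPL23AA itself was lower in root, at 435, 531, 478 and 436 CPM, against 646, 599.8, 645 and 682 CPM in shoot (log2 fold change -0.46 ± 0.11, adjusted p = 0.00642). RPL23AB (AT3G55280) had 241, 221, 239 and 168 CPM in root, against 218, 183, 238 and 257 CPM in shoot, overlapping (log2 fold change -0.04 ± 0.16, adjusted p = 0.865).

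RPL24 lies at the interface with the small subunit, and STV1 (AT3G53020, RPL24B) is known in Arabidopsis for its role in restarting translation after upstream reading frames in auxin-related mRNAs. STV1 held 60.8, 60.4, 62.7 and 62.1% of RPL24 counts in root and 52.2, 56.3, 57.8 and 56.5% in shoot, and all root values were higher. Its mean share was 61.5 ± 1.08% in root and 55.7 ± 2.404% in shoot, a difference of 5.79 points (exact permutation p = 0.0286, n = 4 each). STV1 had 327, 349.6, 349 and 322 CPM in root, against 341, 339, 431 and 335 CPM in shoot, where shoot C stood above the rest (log2 fold change -0.09 ± 0.11, adjusted p = 0.554). RPL24A (AT2G36620) had 211, 229, 208 and 197 CPM in root, against 311, 264, 315 and 257 CPM in shoot, without overlap. It was lower in root, with a log2 fold change of -0.44 ± 0.12 (adjusted p = 0.0153). The call was lost without root A (adjusted p = 0.0682), root C (0.0810), shoot A (0.0537) or shoot C (0.0659), all in edgeR.

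RPL5 binds the 5S rRNA, and its genes ATL5 (AT3G25520) and RPL5B (AT5G39740) are also known as OLI5 and OLI7, from mutants with fewer leaf cells. ATL5 had 57.5, 61.3, 62.2 and 63.96% in root and 61.04, 60.2, 60.8 and 61.3% in shoot. The shoot libraries lay within 1.09 percentage points of each other, inside the wider root range (exact permutation p = 0.714, n = 4 each). The exact permutation p was 0.0286 without root A and from 0.714 to 0.886 without any other single library. Without root D the difference, root minus shoot, reversed to -0.474 points. Both genes were lower in root by a like amount. ATL5 had 791 ± 81.3 CPM in root, against 1143 ± 29.4 CPM in shoot (log2 fold change -0.54 ± 0.09, adjusted p = 7.52e-04), and RPL5B 499 ± 35.7 CPM and 737 ± 33.1 CPM in the same order (-0.56 ± 0.09, adjusted p = 6.33e-04).

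RPL13a, a family of 4 genes, kept its leader in all 8 libraries but differed in a minor copy. AT4G13170 had 11.1, 8.205, 8.81 and 8.58% in root and 15.9, 13.1, 13.8 and 14.3% in shoot, with no overlap (exact permutation p = 0.0286, n = 4 each). The leader AT3G24830 had 54.1, 55.1, 50.2 and 52.7% in root and 51.5, 49.6, 49.3 and 49.2% in shoot (exact permutation p = 0.0571, n = 4 each, and 0.0286 without root C), higher in root in each of the 4 buffers. With single libraries left out, its difference, root minus shoot, ran from 2.42 to 4.08 points. AT3G07110 came next with 24.3, 26.5, 29.5 and 28.3% in root and 22.8, 27.3, 27.2 and 26.2% in shoot, and AT5G48760 held 10.7 ± 0.608% and 9.95 ± 0.240% in the same order. AT4G13170 had the largest fold change of the members that passed, with 126, 102, 104 and 100.1 CPM in root, against 244, 214, 221 and 212 CPM in shoot (log2 fold change -1.05 ± 0.13, adjusted p = 6.92e-05). AT3G24830 was at 627 ± 39.7 CPM in root, against 779.8 ± 33.9 CPM in shoot (-0.32 ± 0.09, adjusted p = 0.0177), and AT3G07110 at 321 ± 31.9 CPM and 405 ± 44.5 CPM (adjusted p = 0.0257), both lower in root. The call of AT3G24830 was lost without root A (adjusted p = 0.0685), root C (0.0857), shoot A (0.0506) or shoot C (0.0681), and that of AT3G07110 without root A, B or C or shoot A, B or C, at adjusted p values of up to 0.106. AT5G48760 had 126 ± 7.84 CPM in root, against 155 ± 5.399 CPM in shoot and did not pass (adjusted p = 0.0948).

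**Figure D3:**
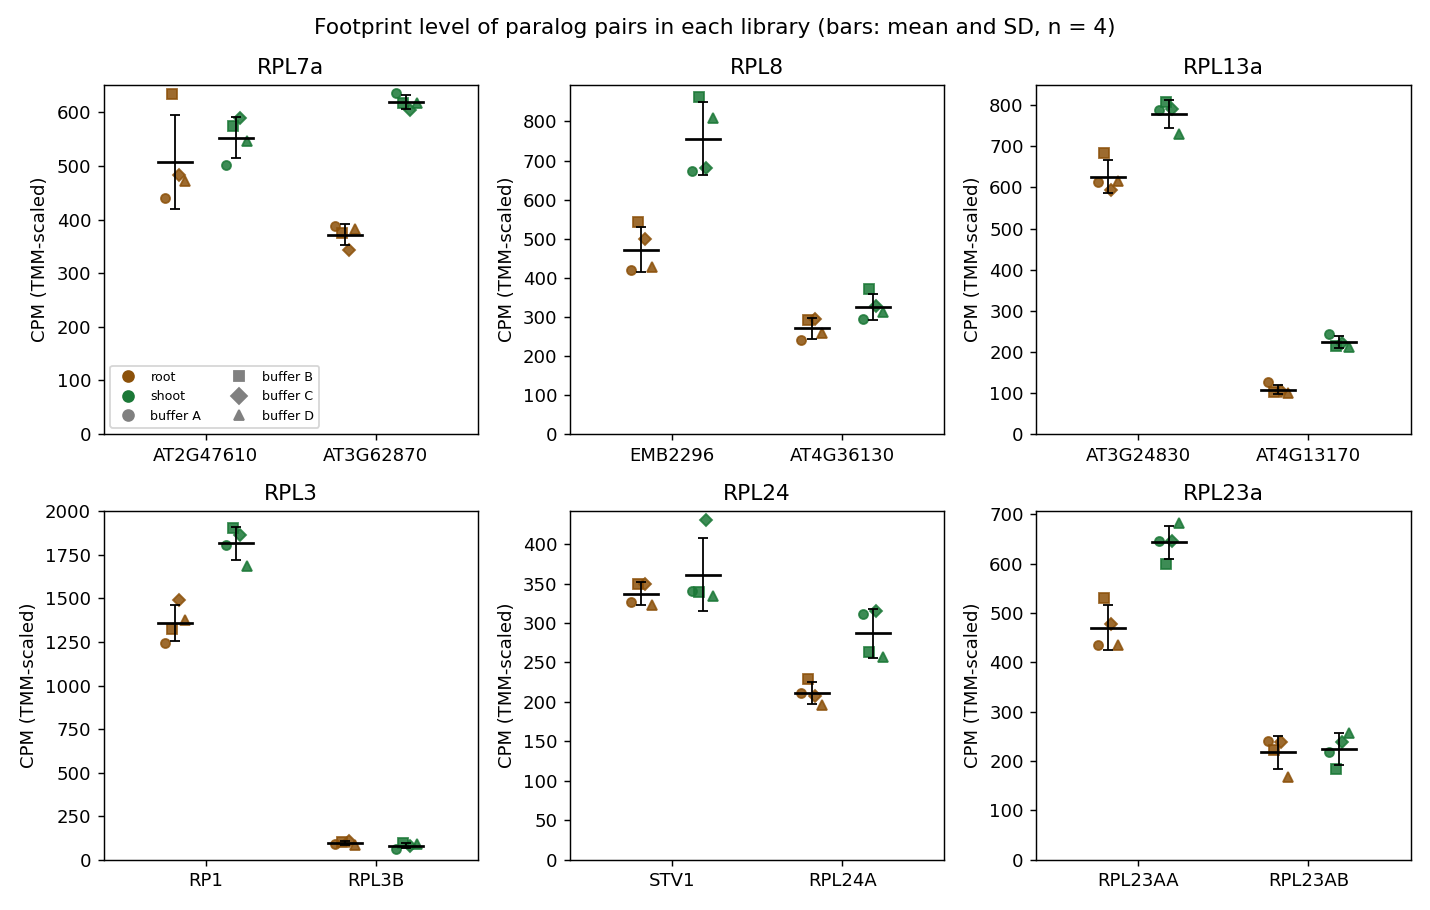
Footprint level (y axis, TMM-scaled CPM, from 0) of a pair of paralogs in each of 6 families, root left of shoot for each gene. Points are single libraries with the marker giving the buffer, and black bars are the mean and SD of 4 libraries. AT4G13170 averages 108 CPM in root, against 223 CPM in shoot, while STV1, RPL23AB and AT2G47610 overlap between the tissues.

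RPL28, a protein that budding yeast lacks, was represented by AT2G19730, with AT4G29410 as the other paralog. AT2G19730 had 75.2, 74.7, 74.5 and 74.96% in root, the narrowest range of any leader, and 72.8, 70.3, 70.5 and 71.7% in shoot. The family had 2277, 1188, 1058 and 571 counts in the root libraries. Counting error of a share is wider than the root range at such counts, so the root range and SD understate the error. The means were 74.8 ± 0.330% in root and 71.4 ± 1.17% in shoot (exact permutation p = 0.0286, n = 4 each, and 0.0571 without root A or without root D). The ranges stayed apart in both leave-outs. With TMM its level ran the other way from its share. It had 433, 459, 376 and 315 CPM in root, against 513, 563, 512 and 515 CPM in shoot (log2 fold change -0.42 ± 0.11, adjusted p = 0.0115, and 0.0529 without root C). With library totals the log2 fold change was 0.0759 and did not pass (adjusted p = 0.607, edgeR). AT4G29410 had 133 ± 21.5 CPM in root, against 211 ± 19.8 CPM in shoot (log2 fold change -0.67 ± 0.14, adjusted p = 0.00256).

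In RPL13 the leader BBC1 (AT3G49010) had 81.02, 82.04, 74.3 and 69.4% in root and 77.1, 83.2, 79.1 and 77.6% in shoot, and AT5G23900 nearly all of the rest, with 23.2 ± 5.799% in root and 20.7 ± 2.76% in shoot. The root libraries spread widely, from 69.4% in D to 82.0% in B, and the tissues overlapped (exact permutation p = 0.486, n = 4 each). BBC1 was nevertheless among the genes that differed most in level, with 589.9, 708, 477 and 449.7 CPM in root, against 822, 1011, 808 and 809 CPM in shoot (log2 fold change -0.65 ± 0.10, adjusted p = 4.39e-04).

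RPL9, near the site where elongation factors bind, has an adjacent pair of genes with no other protein-coding gene between them in the reference table, AT1G33120 and PGY2 (AT1G33140), the second named for a leaf polarity phenotype. AT1G33120 had 48.6, 46.5, 47.96 and 44.7% in root and 45.9, 46.6, 48.4 and 48.2% in shoot. PGY2 had 39.4, 39.4, 40.03 and 43.8% in root and 42.5, 45.05, 40.99 and 41.96% in shoot, with root D the highest in root. The third copy, AT4G10450, held 12.4 ± 1.15% in root and 10.1 ± 1.36% in shoot. The leader's shares overlapped (exact permutation p = 0.800, n = 4 each), and none of the 3 genes passed in level with TMM, while library totals called all 3 higher in root, with log2 fold changes of 0.36 for AT1G33120 (adjusted p = 0.00895), 0.31 for PGY2 (adjusted p = 0.0426) and 0.67 for AT4G10450 (adjusted p = 0.00382) in edgeR. AT1G33120 had 491 ± 35.7 CPM in root, against 538 ± 25.3 CPM in shoot, PGY2 427 ± 58.4 CPM and 485 ± 27.97 CPM, and AT4G10450 129 ± 5.27 CPM and 115 ± 14.7 CPM in the same order.

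RPL7 has 4 genes. AT2G01250 led with 57.95, 59.5, 59.8 and 55.4% in root and 56.6, 58.8, 61.5 and 59.3% in shoot (exact permutation p = 0.543, n = 4 each). AT2G44120 followed with 28.5, 30.9, 29.3 and 33.4% in root and 31.8, 31.6, 29.2 and 29.6% in shoot, so the first and second copies kept nearly the same balance in both tissues. AT3G13580 and AT1G80750 were minor, with 5.23 ± 1.801% and 6.102 ± 1.41% in root and 5.71 ± 0.425% and 4.73 ± 0.907% in shoot. In root D AT1G80750 reached 8.09% and AT3G13580 had its lowest value of all libraries, 3.17%. None of the 4 genes passed in level with TMM, while library totals called AT2G01250 (0.27, adjusted p = 0.0312), AT2G44120 (0.29, adjusted p = 0.0337) and AT1G80750 (0.65, adjusted p = 0.0096) higher in root in edgeR. With TMM, AT2G01250 had 782 ± 86.6 CPM in root, against 915 ± 83.1 CPM in shoot, and AT2G44120 409.7 ± 41.3 CPM and 472 ± 27.9 CPM.

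In RPL18 and RPL27a the tissue means of the leader lay within 1 percentage point of each other. AT5G27850 of RPL18 had 53.3, 53.9, 60.01 and 50.3% in root and 53.9, 54.3, 52.96 and 52.5% in shoot, with AT3G05590 as the rest (exact permutation p = 0.743, n = 4 each). The shoot libraries lay within 1.81 points of each other, while root C and root D were the extremes. Another paralog, AT2G47570, had 0 counts in all 8 libraries. RPL27AB (AT1G23290) had 61.5, 57.8, 60.96 and 61.7% of RPL27a in root and 62.3, 59.3, 59.4 and 62.2% in shoot, and AT1G70600 had 39.5 ± 1.78% in root and 39.2 ± 1.69% in shoot (exact permutation p for RPL27AB = 0.886, n = 4 each). Both RPL27a genes were lower in root in level, RPL27AB with 638 ± 28.03 CPM in root, against 830.5 ± 66.7 CPM in shoot (adjusted p = 0.00903), and AT1G70600 with 418 ± 45.2 CPM and 534 ± 9.34 CPM (adjusted p = 0.0192). The call of RPL27AB was lost without root A (adjusted p = 0.0502), and that of AT1G70600 without root A, root C, shoot A or shoot C (up to 0.0866). Library totals called both RPL18 genes higher in root, AT5G27850 at 0.32 (adjusted p = 0.0215) and AT3G05590 at 0.27 (adjusted p = 0.0485, edgeR). With TMM they did not pass, with 557 ± 71.1 CPM in root, against 628 ± 58.1 CPM in shoot for AT5G27850 and 465 ± 28.9 CPM and 547 ± 43.3 CPM for AT3G05590.

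The stalk, which recruits the elongation factors, is built from P0 at its base and P1 and P2 proteins on it. AT3G09200 led P0 with 84.1, 86.1, 88.3 and 77.3% in root and 86.5, 89.8, 90.1 and 88.8% in shoot. AT3G11250 followed with 15.9, 13.9, 11.7 and 21.3% in root and 12.8, 9.83, 9.51 and 10.6% in shoot, and root D had the highest value. The leader was lower in root in each of the 4 buffers, but its ranges overlapped (exact permutation p = 0.0571, n = 4 each, and 0.0286 without root C). With single libraries left out, its difference, root minus shoot, ran from -6.30 to -2.64 points. AT2G40010 had few counts, with 0, 0, 0 and 11 counts in root libraries A to D and 21, 12, 10 and 17 in shoot, so root D alone held its root counts. AT3G09200 had 492, 582, 546 and 436 CPM in root, against 684, 841, 766 and 749 CPM in shoot (adjusted p = 8.98e-04), while AT3G11250 had 94.8 ± 19.5 CPM in root, against 90.8 ± 8.34 CPM in shoot (adjusted p = 0.869).

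In P1, AT1G01100 had 47.5, 51.2, 48.8 and 43.3% in root and 51.5, 51.2, 48.6 and 50.4% in shoot. AT5G47700 had 40.98, 37.2, 41.8 and 47.2% in root and 37.8, 38.00, 41.8 and 38.1% in shoot, and overtook AT1G01100 in root D only. The leader's shares overlapped (exact permutation p = 0.200, n = 4 each). AT1G01100 had 422 ± 48.3 CPM in root, against 497 ± 29.1 CPM in shoot, and did not pass (adjusted p = 0.122).

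Together the 39 genes took 1.76 to 1.98% of all counts of a root library and 1.68 to 1.78% of a shoot library. The mean was 1.89 ± 0.0961% in root and 1.74 ± 0.0385% in shoot, with overlap (two-sided exact permutation p = 0.0571, n = 4 each, and 0.0286 without root A). With single libraries left out, the difference, root minus shoot, ran from 0.128 to 0.203 points. Organelle-encoded genes, 1.27 ± 0.774% of counts in root and 4.89 ± 0.772% in shoot, differed between the tissues in the other direction. Over nuclear genes alone the members took 1.92 ± 0.0979% in root and 1.82 ± 0.0320% in shoot (exact permutation p = 0.143, n = 4 each). Over library sizes scaled by TMM the order turned round, with 1.59 ± 0.0765% in root and 2.06 ± 0.0581% in shoot (exact permutation p = 0.0286, n = 4 each). The direction of the summed level therefore depended on the scaling, whereas shares within a family did not.

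The same held gene by gene. With TMM factors, 19 of 38 tested members were lower in root and 0 higher, with adjusted p below 0.05 in edgeR (quasi-likelihood F test, p-values adjusted over all 15664 genes tested), where 22.6% of all genes were lower and 17.8% higher. The median log2 fold change of the members was -0.31, against -0.12 for all genes tested. Without root A, 12 members were lower and 0 higher, where 3159 of 16193 genes were lower and 2107 higher. With each of the 8 libraries left out in turn, 11 of the 19 calls held every time and 8 were lost at least 1 time, as given with each gene. CPM ranges did not overlap for 20 members, all lower in root, where 25.3% of all genes lay lower and 19.8% higher in root without overlap. With library totals alone the median of the members was 0.18, against 0.38 for all genes, and 13 members were higher and 1 lower in root, where 30.4% of all genes were higher and 17.2% lower. Besides the genes of RPL7, RPL9 and RPL18 given above, the higher genes were RPL3B at 0.78, AT2G47610 at 0.36, RPL23AB at 0.46, STV1 at 0.40 and AT3G11250 of P0 at 0.54 on the log2 scale. The gene that was lower in both scalings was AT4G13170, at -0.55 with library totals.

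A scaling by the summed counts of all cytosolic large subunit genes asks which members differ from that pool. The members are themselves part of the pool, with 59854 of its 133556 counts in root A. Their median log2 fold change, 0.0201, is thus drawn toward no change by the scaling, and so is the balance of lower and higher members. This scaling gave 4 members lower in root and 3 higher, where 18.4% of all genes were lower and 25.3% higher. The lower genes were AT4G13170 at -0.71 (adjusted p = 0.00103), AT3G62870 at -0.40 (adjusted p = 0.00631), EMB2296 at -0.34 (adjusted p = 0.0193) and BBC1 at -0.31 (adjusted p = 0.0266), all edgeR values on the log2 scale. The higher genes were RPL3B at 0.61 (adjusted p = 0.014), AT4G10450 of RPL9 at 0.51 (adjusted p = 0.0168) and AT1G80750 of RPL7 at 0.49 (adjusted p = 0.0399). The higher 3 were all minor copies of their families. The value of AT1G80750 was the highest in root D, at 102 CPM, against 73.0 to 76.3 CPM in the other root libraries.

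**Figure D4:**
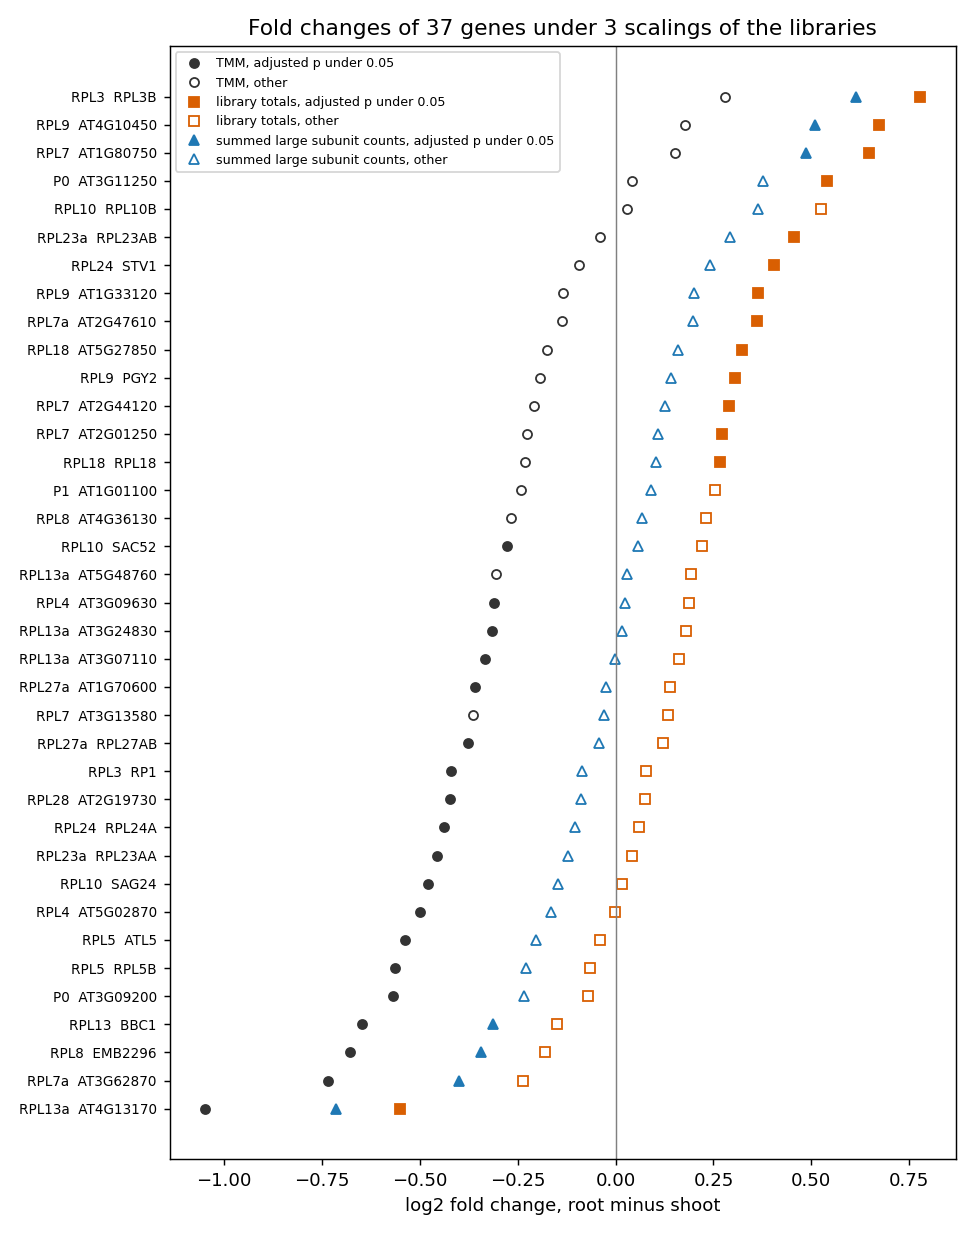
Log2 fold change, root minus shoot (x axis), of 37 genes (rows, ordered by the TMM value) under 3 scalings of the libraries, filled where the adjusted p is under 0.05. The scaling shifts every gene by nearly the same amount, and AT4G13170 is the single gene filled on the lower side under all 3. AT2G40010, which has 0 counts in 3 root libraries, and AT3G51190, which was not tested, are left out.

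The other cytosolic large subunit genes had a like spread. Of 91 other genes in the list 83 were tested, and 36 were lower and 1 higher in root with TMM factors, with a median log2 fold change of -0.33. The 3 largest changes among those that passed were AT2G32220 of RPL27, with 21.8 ± 16.1 CPM in root, against 40.7 ± 7.704 CPM in shoot (log2 fold change -1.13 ± 0.40, adjusted p = 0.0458), AT1G04480 of RPL23, with 102 ± 25.03 CPM in root, against 199 ± 27.1 CPM in shoot (-0.97 ± 0.16, adjusted p = 6.26e-04), and AT5G67510 of RPL26, with 68.8 ± 12.3 CPM in root, against 133 ± 13.7 CPM in shoot (-0.97 ± 0.19, adjusted p = 1.76e-03). All of these are edgeR values, and AT2G32220 overlapped between the tissues, with 44.9 CPM in root D and 10.1 to 21.0 CPM in the other root libraries.

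The buffers left the members without a call. No member passed for any buffer, where 0.0575% of 15664 genes did (edgeR, 1 member at an unadjusted p under 0.05), for buffer A minus C, where 0% did (1 member at an unadjusted p under 0.05), or for buffer D minus B, where 0.0447% did (2 members at an unadjusted p under 0.05). DESeq2 called 0 members in each of these as well, with 0, 0 and 2 members at an unadjusted p under 0.05 in the same order. BBC1 had the smallest unadjusted p for D minus B, with 449.7 CPM in root D and 708 CPM in root B, and 809 CPM in shoot D and 1011 CPM in shoot B (log2 fold change -0.48, adjusted p = 1.00 in edgeR). Shares were not tested between buffers, which had 1 library per tissue. The leader's share spanned up to 12.6 points over the root libraries, in RPL13, and up to 6.07 points over the shoot libraries, in the same family. Counting error alone gives a 95% Wilson interval of at most ± 3.57 points for a share in root D and at most ± 2.25 points in the shoot libraries.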

How the data were processed

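The authors deposited raw counts of ribosome footprints per gene on coding sequences, 1 column per library, with no normalization; lysates were RNase-treated and ribosomes isolated on size exclusion columns, per the labels' protocols. Bowtie2, STAR 2.5.1b and TAIR10 are named in the submitters' processing notes; the counting program is not given in the sources used here. Libraries were assigned to tissue and buffer by title. Members were found by identifier; the members, families and lists were chosen with earlier results of these data known. Symbols come from a RefSeq table of TAIR10.1, which matched all 39 members; families were assigned from general knowledge. Shares were planned per codon with a background of closest protein pairs, but no protein lengths were used here, so raw counts were used. Counts were fitted in R 4.3.3 with edgeR 4.0.16 (TMM, filterByExpr with minimum count 10 and total 15, tissue and buffer as terms, quasi-likelihood F test across all genes, Benjamini-Hochberg, threshold 0.05); the SE is the absolute fold change divided by the square root of F. The fit, tested on simulated data, recovered only part of the changed genes, fewer of the smaller changes, so a gene that did not pass may still differ. DESeq2 1.42.0 was an alternative. Shares were compared by exact permutation tests over libraries (Python 3.11.15). All 39 members may be named; values per library are given for the leading genes, the second copies and those the results turn on. The same buffer letters pair a root with a shoot library.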

Additional observations from a re-analysis of the deposited data

Results flagged for a closer look

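In 164 groups of 4 libraries, 12 had a library that stood apart by Dixon's criterion at 95%, where chance gives about 1 in 20 for separate, continuous values. The groups were not separate, as shares and CPM of the same genes were both tested. AT2G40010 and AT3G51190 were flagged in both measures, which is automatic where all other libraries of the tissue hold 0. The number flagged is therefore not to be read against that rate. In root D, the shallowest library, these were AT2G40010 of P0 with a share of 1.44% and 8.10 CPM against 0 in the other root libraries, PGY2 of RPL9 with a share of 43.8% against 39.4 to 40.0%, and AT1G80750 of RPL7 with 102 CPM against 73.0 to 76.3 CPM. In root A it was AT4G13170 of RPL13a with 126 CPM against 100.1 to 104 CPM. In shoot B, AT3G51190 of RPL8 had a share of 0.138% and 1.71 CPM against 0 in the other shoot libraries, BBC1 of RPL13 had 1011 CPM against 808 to 822 CPM, and AT2G19730 of RPL28 had 563 CPM against 512 to 515 CPM. In shoot C, STV1 of RPL24 had 431 CPM against 335 to 341 CPM, and AT5G47700 of P1 a share of 41.8% against 37.8 to 38.1%. In shoot D, AT3G09630 of RPL4 had 1375 CPM against 1258 to 1264 CPM. The part of depth in these values was not tested.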

How the results depend on the processing

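The fit with tissue alone, without the buffer pairing (no replicate block), left 19 members lower and 0 higher in root. DESeq2 size factors and the DESeq2 test did the same. Of all 15664 genes, 3791 were lower and 3228 higher with tissue alone. DESeq2 size factors gave 3583 and 2756, and the DESeq2 test 3865 and 2952, in the same order. No filter on low counts gave 20 members lower and 0 higher, where 3911 of 21907 genes were lower and 2758 higher. Library totals gave 1 member lower and 13 higher, and the large subunit pool 4 lower and 3 higher. With library totals 24 of 38 tested members had the other sign (11 of them called with TMM, and 9 called under library totals). Among the 16 genes followed through every alternative these log2 fold changes reversed: RP1 0.0778, AT2G47610 0.36, AT4G36130 0.23, AT3G24830 0.18, RPL24A 0.0590, STV1 0.40, RPL23AA 0.0412, RPL23AB 0.46 and AT2G19730 0.0759. With the pool 15 had the other sign (3 of them called with TMM, and 0 under the pool), and among the 16 AT2G47610 reversed to 0.20, AT4G36130 to 0.0666, AT3G24830 to 0.0174, STV1 to 0.24 and RPL23AB to 0.29. The summed share was -0.47 points over TMM-scaled sizes. With the replicate block, pairing root and shoot by buffer, sign flips cannot go below an exact p of 0.125, which the 6 families reached with their differences as they were (RPL3 -2.39, RPL7a 10.3, RPL8 -6.30, RPL23a -5.82, RPL24 5.79 and RPL28 3.48 points). Leaving out each library in turn gave 12 to 20 members lower and 0 higher. Over all genes, 16193 to 16360 of them tested, 3057 to 3454 were lower and 2107 to 2732 higher. The same leave-outs gave 6 to 8 families without overlap, 0 members called for any buffer contrast and a summed difference of 0.128 to 0.203 points. Leaving out a library can only narrow a range, so the count of families could not fall below 6 and its lower end is no check. The share differences ranged from -2.68 to -2.10 for RPL3, 2.72 to 3.87 for RPL4, -0.474 to 1.67 for RPL5, -1.70 to 0.0455 for RPL7, 8.44 to 11.7 for RPL7a, -7.02 to -5.49 for RPL8, -0.890 to 0.403 for RPL9, -0.0807 to 2.75 for RPL10, -4.34 to -0.137 for RPL13, 2.42 to 4.08 for RPL13a, -0.936 to 2.32 for RPL18, -7.08 to -4.46 for RPL23a, 4.63 to 6.48 for RPL24, -0.812 to 0.589 for RPL27a, 3.13 to 3.97 for RPL28, -6.30 to -2.64 for P0 and -3.87 to -1.23 for P1. The fold change of RPL23AB ranged from -0.16 to 0.13. With members alone, the count of families without overlap was 5, RPL28 having 1 member. This count and its leave-one-out values were added after seeing the data. Over all genes, edgeR called 9 for any buffer and 7 for buffer D minus B, the DESeq2 test 24 and 16, and edgeR with DESeq2 size factors 9 and 2. Shares per codon were not run. Depth was lowest in root D, where the smallest family had 571 counts. Causes were not tested.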
